A study of Mus musculus with 18 samples.

Results

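The oocytes of primordial follicles were set against those of primary follicles inside the same kind of cultured mouse ovary, with 3 RNA libraries at each stage. These 6 libraries are all that the sample labels place at the 2 microdissected stages of the *in vitro* group, out of 18 libraries in the series. Both stages came from ovaries of F1 C57Bl/6j x CBA/J females that were removed at 7 days of age and cultured for 7 days in α-MEM with 10% FBS. The corresponding *in vivo* groups, used here for comparison only, were oocytes of the same 2 stages from non-cultured ovaries of 14-day-old females. By the study's methods the medium of all 6 culture libraries also held insulin, transferrin, selenium, antibiotics and recombinant FSH. The labels name no transgene or deletion. A follicle was taken as primordial when flattened pregranulosa cells surrounded the oocyte and as primary when they were cuboidal, and the oocyte was cut out of a tissue section by laser capture microdissection. RNA of oocytes of one stage was pooled, so a library holds many oocytes. The number of animals behind a library is not given in the sources used here, and p-values therefore measure the spread between pools, which may be partly technical.

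A primordial follicle is a dormant unit of one small oocyte and a few flat somatic cells, and it can rest for most of the reproductive life. Activation starts when signals that include KIT ligand drive the PI3K pathway in the oocyte, FOXO3 leaves the nucleus and mTORC1 raises protein synthesis. The growing oocyte then lays down the zona pellucida, secretes GDF9 and BMP15 toward the granulosa cells, and stores mRNAs and proteins for the embryo. The comparison asks which of these transcripts differ between resting and newly growing oocytes when the whole ovary grows in a dish.

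The libraries of primary follicle oocytes held reads of many more genes, and the replicates of both stages differed widely from each other. No single gene passed the test between the stages with edgeR, although 1512 genes had a higher level in every primary library than in any primordial library and only 205 genes showed the opposite. Among gene groups of more than 10 tested members, TGF-β, BMP and activin genes held the largest share of members with that pattern upward (26.7%). Replication-dependent histone genes, a group assembled after the values were seen, followed with 21.9%, and glycolysis and pyruvate genes with 20%. Zona pellucida genes, *Gdf9* and the maternal effect genes overlapped between the stages, and primordial library 2 lay above all 3 primary libraries for most of them. Below, 3 values joined for a stage are those of its libraries 1, 2 and 3 in that order.

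Total counts were 15149564, 29205503 and 21086068 in the primordial libraries and 23930436, 22572216 and 23410138 in the primary libraries. The 3 reads that a count of 0 allows for were 0.103 to 0.198 CPM (counts scaled to a common library total), and such limits cover counting error only because the amplified reads carry no molecular identifiers. The 12 oocyte markers tested were over 3 reads in 9, 12 and 10 cases in the primordial and in 12, 11 and 12 cases in the primary libraries. The germ cell helicase gene *Ddx4* had 72, 1749 and 6114 reads in the primordial and 3042, 3716 and 1073 in the primary libraries. Somatic transcripts were present too. The granulosa marker *Wt1* had 9222, 8911 and 46004 reads in the primordial and 9359, 22896 and 13158 in the primary libraries. The collagen gene *Col1a1* of stroma had 9286, 8266 and 117039 against 25879, 68819 and 23588. Summed over the 15 granulosa markers tested, the level was 982, 871 and 3481 CPM in the primordial and 1048, 2256 and 1966 CPM in the primary libraries, and over the 14 stroma and theca markers it was 1683, 1968 and 9942 against 2326, 5688 and 2267 CPM. Both sums overlapped between the stages. The median log2 difference was 2.02 for the granulosa markers (12 of 15 positive) and 0.37 for the stroma and theca markers (8 of 14). Over all genes tested it was 0.44. The 7 surface epithelium markers had a median of 10.1, with 7 positive, or 5.24 with genes at 0 set at the 3-read bound. Their sums were 235, 406 and 0.193 CPM in the primordial and 170, 3332 and 110 CPM in the primary libraries, and overlapped too. Primary library 2 was the one library with all 7 surface epithelium markers over 3 reads, and there the keratin gene *Krt19* had 41859 reads, against 0 to 1 in the other 5 libraries. Blood and immune markers had 0 to 1 gene over 3 reads in a library, but their sum was 31.7 CPM in primary library 1, almost all of it from 976 reads of the globin gene *Hba-a1*, and 2.73 CPM or less in the other libraries. Endothelial markers leaned the other way, with a median log2 difference of -4.76 over 7 genes, or -2.94 with genes at 0 set at that bound. Their sums were 917, 64.4 and 37.2 CPM in the primordial and 0.488, 42.0 and 0.186 CPM in the primary libraries. Most of that sum was *Tek*, an angiopoietin receptor gene, with 12584, 0 and 424 reads in the primordial and 0 in each primary library. The part of these cell types in the results was not tested. In such pools fewer cells of a type and less RNA per cell cannot be told apart.

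On the first principal component of the 6 libraries (33.8% of the variance over the 500 most variable genes) primordial library 1 lay at -130.7 and the other 5 between 0.129 and 51.2. On the second component (24.8%) primordial library 2 lay at -110.1, primordial library 3 at 64.5 and the 3 primary libraries between 5.03 and 16.6. Spearman correlations of the counts were 0.483 to 0.547 among primordial libraries and 0.648 to 0.776 among primary libraries. The mean Euclidean distance of log2 CPM was 490 between the stages and 459 within them, a ratio of 1.07 (p = 0.1 by an exact one-sided permutation test, which has 10 splits and can give no smaller p). Without primary library 1 the ratio was 0.988 and without primary library 3 it was 0.984, so the sign of the separation rests on those libraries.

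Many more genes were detected in the libraries of primary follicle oocytes. The number of genes over 3 reads was 5703, 7966 and 8147 in the primordial libraries and 11094, 8880 and 11710 in the primary libraries. The means were 7272 ± 1362 and 10561 ± 1488 (SD, n = 3), and the groups did not overlap (two-sided exact permutation test, p = 0.1, the smallest possible). With every library thinned to the smallest total, the numbers were 5703, 7254 and 7738 against 10487, 8351 and 11063, a difference of 3069 genes in place of 3289. At 1 CPM or more the difference was 2403 genes. Thinning evens the read totals only. The part of RNA input and amplification in these numbers, and in the larger number of genes higher in all primary libraries, was not tested. In all, 434 genes were over 3 reads in every primary library and at most at 3 in every primordial library, whereas 4 genes had the reverse pattern. At the stricter limit of over 10 reads against 0 the numbers were 107 and 0. The 4 genes were *Sh3gl3*, *Snx22*, *Ctsc* and *Gm45894*, of which *Sh3gl3*, an endophilin gene, had 8, 2044 and 5 reads in the primordial libraries and 0 in each primary library.

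**Figure D1:**
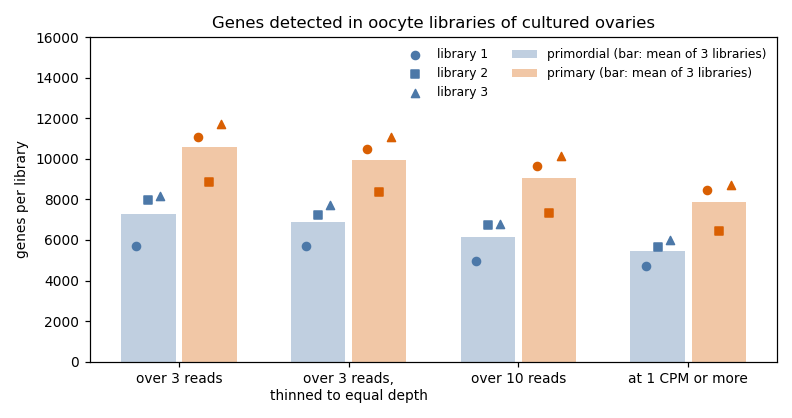
Number of genes per library (vertical axis) under 4 detection rules (horizontal axis) in oocytes of primordial (blue) and primary (orange) follicles from cultured ovaries, with bars at the mean of 3 libraries and points for single libraries. Under each rule the lowest primary library, library 2, lies above the highest primordial library, and over 3 reads the means are 7272 and 10561.

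Many genes with high counts in one library were near 0 in a replicate. Of 7043 genes with over 100 reads in a primordial library, 3614 (51.3%) were at 3 reads or fewer in a replicate of the same stage. The corresponding share for primary follicles was 2667 of 9202 genes (29.0%). By mean CPM, which is not corrected for length, *Actb*, the cytoskeletal actin gene, led at both stages, with 236242, 405497 and 565530 reads in the primordial and 384037, 448863 and 436148 in the primary libraries (log2 difference -0.39, SE 0.69). *Eif4g2*, *Ahnak* and *Usp9x* were among the 5 genes of highest mean CPM at both stages, joined by *Son* in primary follicles.

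Of 15317 genes tested with edgeR's quasi-likelihood test and Benjamini-Hochberg adjustment, 0 (0%) were called at an adjusted p under 0.05 with a fold change of at least 2 in either direction. The biological coefficient of variation was 2.02 and the smallest adjusted p was 0.289, for *Krt19*. At an unadjusted p under 0.05 there were 1411 genes higher in primary and 262 higher in primordial follicles, but in 795 (56.3%) and 228 (87.0%) of them a single library supplied at least 90% of the level of the higher stage. DESeq2 called 423 genes higher and 31 lower in primary follicles, limma-voom with sample quality weights 261 and 1, and limma on log2 TPM 18 and 0. By level in every library, 1512 genes (9.87% of those tested) lay higher in all 3 primary libraries and 205 (1.34%) higher in all 3 primordial libraries, where a level is CPM after TMM scaling. These percentages are the background for the gene groups that follow. With other scalings the upward share of the genes without overlap ran from 82.9% to 93.3%, against 88.1% here. The median log2 difference over all genes tested was 0.44, and it was 0 when the 2626 genes at 0 in every primordial library and the 489 at 0 in every primary library were set at the fold that 3 reads per library allow. No member of any gene group below was called by edgeR. DESeq2 and limma-voom called 19 and 15 members, of which 11 by both, namely *Tgfb3*, *Eif4ebp1*, *Patl2*, *Hk2*, *Atp5f1* and 6 histone genes, all higher in primary follicles. Over all 15317 genes tested they called 454 and 262, of which 187 by both. The 6 histone genes belong to the group assembled after the values were seen. Whether the groups held more calls than other genes was not tested, and these counts are no result about the groups.

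The zona pellucida and the oocyte-secreted factors mark oocyte growth. None of the 3 zona genes separated the stages. *Zp3*, which encodes a core zona glycoprotein (ENSMUSG00000004948, chr5:135980099-135988624), had 121, 2108 and 63 reads in the primordial and 541, 599 and 776 in the primary libraries. *Zp2*, whose product is cleaved after fertilization, had 126, 860 and 108 against 419, 261 and 344. *Zp1*, which cross-links zona filaments, had 2599, 5427 and 635 against 826, 2594 and 1609. In each of the 3 genes primordial library 2 held the most reads of all 6. The log2 differences were -0.41 (SE 3.04) for *Zp3*, -0.37 (SE 3.14) for *Zp2* and -1.15 (SE 2.64) for *Zp1*. Without primordial library 2 the median of the 3 genes was 0.73, beside 1.43 over all genes tested, and it was also positive with limma-voom (0.17) and on log2 TPM (0.28 and 0.32).

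*Gdf9*, whose product drives granulosa cell proliferation, had 32, 7061 and 5 reads in the primordial libraries and 2081, 1057 and 2206 in the primary libraries. *Bmp15*, its X-linked partner, had 0, 69 and 6 against 83, 34 and 97. *Fgf8*, another secreted oocyte factor, had 0, 1334 and 0 against 1352, 177 and 647. In all 3 genes the primordial libraries spanned from at or near 0 to the level of primary follicles or above it. The log2 difference was -0.54 (SE 2.74) for *Gdf9*, and 5.57 without primordial library 2. *Bmp6* was the one secreted factor whose stages did not overlap, with 157, 6 and 0 reads in the primordial and 1466, 2449 and 2511 in the primary libraries (log2 difference 4.33, SE 3.49, adjusted p = 0.701 by edgeR). *Txndc5* on the opposite strand overlaps *Bmp6*, and the strandedness of the counting is not given in the sources used here.

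Of the 10 oocyte transcription factor genes tested, 2 (20%) lay higher in all primary libraries and 1 (10%) in all primordial libraries. The median log2 difference was -0.41. It turned to 0.51 with limma-voom, 0.31 and 0.69 on log2 TPM, 0.71 without primordial library 2 and 1.33 without primordial library 3. With limma-voom the median over all genes tested was 1.33, above that of the group. *Figla*, the basic helix-loop-helix factor that activates zona genes, was low throughout, at 0.575, 1.37 and 0.580 CPM in the primordial and 0.488, 0.0432 and 0.155 CPM in the primary libraries, and its stages overlapped when library size alone was used for scaling. *Nobox*, a homeobox factor of early folliculogenesis, had 10, 203 and 27 against 52, 31 and 63 reads. *Lhx8*, a LIM homeobox gene, had 431, 368 and 1303 against 1473, 752 and 861. Levels of both therefore overlapped. *Sohlh1* had 0, 72 and 29 reads against 8, 5 and 0, and its partner *Sohlh2* had 0, 31 and 6 against 4, 16 and 0. The TFIID subunit gene *Taf4b* had 14, 10 and 1327 reads against 300, 18 and 481, and most of its reads at each stage came from one or both of libraries 1 and 3. *Tbpl2*, a TBP paralog of oocytes, had 3522 reads in primary library 1 and at most 3 in every other library. *Gtf2a1l* stayed at 8 reads or fewer in all libraries. The homeobox genes *Obox1* (0 in each primordial library against 10, 1 and 10 reads, at least 1.44-fold higher) and *Obox5* (0, 2 and 0 against 8, 11 and 3 reads) were the 2 with higher levels in every primary library, both near the detection limit, and *Obox1* overlaps other *Obox* genes.

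The subcortical maternal complex, a protein assembly of the egg cortex that the early embryo needs, did not separate the stages in any of its 8 genes. *Nlrp5* had 47, 1629 and 250 reads in the primordial and 626, 541 and 479 in the primary libraries (log2 difference -0.37, SE 3.03). *Padi6*, a peptidylarginine deiminase gene, had 43, 1156 and 137 against 618, 715 and 544. *Tle6* had 44, 331 and 34 against 184, 139 and 172. The pattern of *Zp3* recurred here, with primordial library 2 on top and primordial libraries 1 and 3 below the primary ones. *Zbed3* had 1, 803 and 42 against 632, 373 and 719, *Ooep* had 33, 119 and 22 against 54, 64 and 85, and *Khdc3* had 0, 170 and 20 against 52, 22 and 54. *Nlrp2* (0, 33 and 0 against 20, 16 and 16) and *Nlrp4f* (33, 72 and 8 against 75, 26 and 50) overlapped as well. The median log2 difference of the 8 genes was -0.03, and 1.44 without primordial library 2, close to the shift of all genes tested under that omission (1.43). The median was 0.39 with library size alone and 0.91 with limma-voom, beside 0.81 and 1.33 over all genes. On log2 TPM it was 0.49 and 1.00.

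Stored maternal mRNAs gave a similar picture. The 15 tested genes for germ cell RNA binding and storage had a median log2 difference of -0.22, which turned positive with limma-voom (0.48), on log2 TPM (0.52 and 0.77), with library size alone (0.08), with the replicate block (0.38) and without primordial library 2 (0.88) or primary library 3 (0.01). Over all genes tested the median was 1.33 with limma-voom, 0.81 with library size alone and 1.29 with the replicate block, each above that of the group. Of the 15 storage genes 1 (6.67%) did not overlap. That gene was *Patl2*, a translational repressor gene of oocytes, with 0 reads in each primordial library and 132, 6 and 227 in the primary libraries, at least 24.6-fold higher, and *B2m* and *Trim69* overlap it on the opposite strand. Members that overlapped were *Ddx6* (23533, 35076 and 20855 against 38877, 32756 and 24666 reads), an RNA helicase gene, and *Ybx2* (3575, 27591 and 3091 against 9950, 11092 and 10410 reads), an mRNA-masking protein gene. None of 19 genes for oocyte chromatin and maternal reprogramming separated the stages. *Tet3*, the oxidase that acts on paternal DNA methylation in the zygote, had 35, 66676 and 1380 reads in the primordial and 32985, 14177 and 17847 in the primary libraries. Picked after the values were seen, *Zar1* had 0, 2819 and 68 against 960, 659 and 826, *Npm2* had 0, 915 and 1 against 503, 234 and 475, and *Dnmt1* had 5, 10238 and 593 against 4335, 3291 and 2471. In all 4 genes primordial library 2 was the highest and primordial library 1 the lowest of the 6 libraries. Of the 10 oocyte *Nlrp* and oogenesin genes tested, *Nlrp4c* alone did not overlap, at 0 reads in each primordial and 2, 3 and 6 in the primary libraries.

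**Figure D2:**
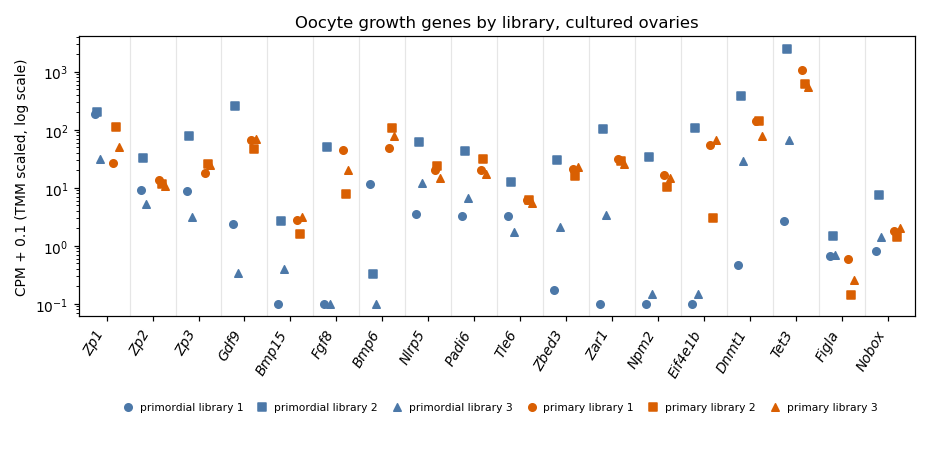
Level of 18 oocyte growth genes (horizontal axis) in CPM after TMM scaling plus 0.1 (vertical axis, log scale) in 3 primordial (blue) and 3 primary (orange) libraries, with one marker shape per library number. The primary points of most genes sit close together, while the primordial points spread on both sides of them with library 2 highest, and *Bmp6* is the one gene shown with all primary points above the primordial ones.

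The sequences upstream of these genes can be read beside the values. The 250 bases before the annotated start are given for *Zp3* and *Zar1*, 2 growth genes with the library 2 pattern, from RefSeq on GRCm38.p6, 5′ to 3′, with matches to the E-box letters CANNTG on either strand in capitals.
Zp3 promoter, chr5:135979855-135980104, plus strand: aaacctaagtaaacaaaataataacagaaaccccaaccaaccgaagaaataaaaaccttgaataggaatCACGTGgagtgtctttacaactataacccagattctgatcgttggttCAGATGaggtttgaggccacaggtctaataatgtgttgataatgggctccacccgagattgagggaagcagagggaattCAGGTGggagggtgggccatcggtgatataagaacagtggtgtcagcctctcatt
Zar1 promoter, chr5:72581085-72581334, minus strand: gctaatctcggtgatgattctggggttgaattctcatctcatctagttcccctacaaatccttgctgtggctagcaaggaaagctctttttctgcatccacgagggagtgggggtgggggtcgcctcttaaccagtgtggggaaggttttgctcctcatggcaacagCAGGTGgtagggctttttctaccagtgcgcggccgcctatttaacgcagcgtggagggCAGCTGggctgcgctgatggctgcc
The *Zp3* window held 3 matches and the *Zar1* window 2, the *Padi6* window 2, the *Bmp15* window 1 and the *Foxo3* window 0, and 66.2% of 32851 RefSeq promoter windows of this length held at least one. E-boxes are the sites that basic helix-loop-helix factors such as FIGLA bind, but a match of these letters is a description and shows no binding.

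Genes of the dormancy pathway were measured at both stages. Of 24, 4 (16.7%) lay higher in all primary libraries and 2 (8.33%) in all primordial libraries, beside 9.87% and 1.34% of all genes. *Kit*, the receptor on the oocyte, had 155, 303 and 5414 reads in the primordial and 7123, 88 and 1191 in the primary libraries (log2 difference -0.06, SE 2.44). *Kitl*, its ligand made by granulosa cells, had 181, 2637 and 13 against 400, 3266 and 2295. Neither gene separated the stages. *Akt1*, a kinase downstream of PI3K, had 0, 6965 and 10033 against 4213, 6791 and 13133.

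*Foxo3*, the transcription factor that restrains activation, was abundant in all 6 libraries (ENSMUSG00000048756, chr10:42181841-42276755). It had 35575, 23144 and 24956 reads in the primordial and 19846, 18799 and 18482 in the primary libraries, or 1540.5 ± 899 against 677 ± 122 CPM (SD, n = 3). The primordial libraries lay above the primary ones, but the stages overlapped after TMMwsp scaling and with library size alone. The log2 difference was -1.19 (SE 1.39, edgeR adjusted p = 0.895).

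On the mTORC1 branch, 4 genes lay higher in every primary library. *Tsc1*, a repressor of mTORC1 (ENSMUSG00000026812, chr2:28641228-28691167), had 53, 415 and 25 reads in the primordial and 4401, 11844 and 2680 in the primary libraries (log2 difference 5.18, SE 3.0, edgeR adjusted p = 0.505). *Rps6kb1*, the S6 kinase gene, had 1, 2 and 476 against 4127, 11747 and 1761 (log2 difference 4.91, SE 3.0). *Eif4ebp1*, which encodes a repressor of cap-dependent translation that mTORC1 inactivates, had 0, 0 and 4 against 2997, 173 and 2219. No primordial library had more than 476 reads of any of the 3 genes, and the lowest primary value was 173. *Rps6*, the target of S6 kinase, differed less, with 220, 396 and 555 against 948, 993 and 1133 reads (log2 difference 0.92, SE 2.93), and its stages overlapped with DESeq2's size factors. *Tsc2*, the partner of *Tsc1*, overlapped, with 70, 110 and 2602 against 1944, 329 and 1417 reads. So did *Mtor* itself, with 4373, 19593 and 3710 against 7224, 5867 and 5281, and the cell cycle inhibitor gene *Cdkn1b*, with 1257, 549 and 960 against 959, 1841 and 660. Upward and downward members thus occurred together, and the median of the 24 genes was -0.27 on the log2 scale, or 0.03 with library size alone, 0.10 with limma-voom, 0.24 and 0.23 on log2 TPM and 0.41 without primordial library 3. Over all genes tested the median was 0.81 with library size alone and 1.33 with limma-voom.

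**Figure D3:**
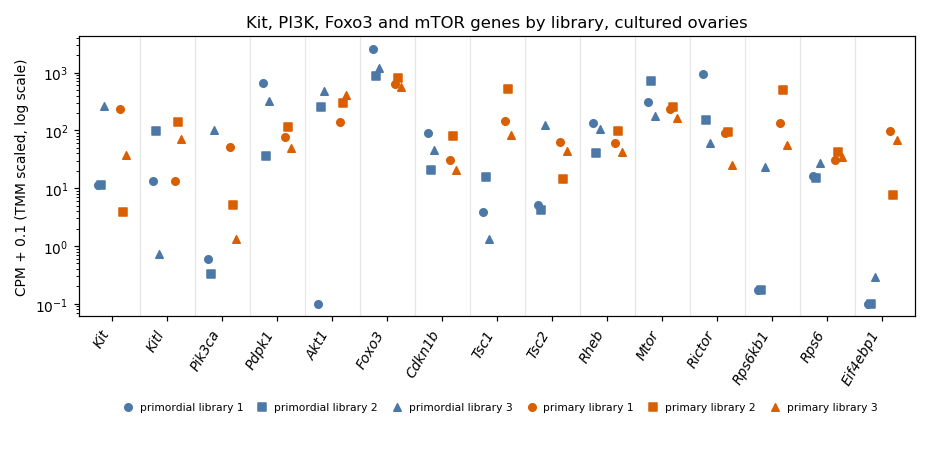
Level of 15 genes of the Kit, PI3K, Foxo3 and mTOR pathway (horizontal axis) in CPM after TMM scaling plus 0.1 (vertical axis, log scale), one point per library. For *Tsc1*, *Rps6kb1*, *Rps6* and *Eif4ebp1* the 3 primary points (orange) lie above all primordial points (blue), for *Foxo3* they lie below, and the other genes overlap.

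In the TGF-β, BMP and activin group, 8 of 30 tested members lay higher in all primary libraries (26.7%, beside 9.87% of all genes), and none higher in all primordial libraries. Its median log2 difference was 1.29, and it ran from 1.03 to 4.25 when each library was left out in turn. The ligand genes among the 8 were *Tgfb3*, with 0, 1 and 17 reads in the primordial and 1026, 1643 and 874 in the primary libraries (log2 difference 7.22, SE 3.27), and *Bmp7*, with 0, 0 and 33 against 546, 696 and 255. The inhibin subunit gene *Inha*, also a granulosa marker, had 0, 379 and 946 against 6712, 2041 and 18330 (log2 difference 3.87, SE 2.76). All 3 had at least 255 reads in every primary library.

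Receptors were less even. *Bmpr1a*, a type I BMP receptor gene, had 17, 13 and 24 reads against 4495, 605 and 3745 (log2 difference 6.65, SE 3.51, edgeR adjusted p = 0.471). *Tgfbr1*, the type I TGF-β receptor gene, had 3, 22 and 8 against 3668, 19 and 6003, so that primary library 2 exceeded primordial library 2 only in CPM and barely. *Acvr2a*, an activin receptor gene, had 0, 1 and 0 against 2633, 8 and 15, with nearly all reads in primary library 1. The inhibitory mediator *Smad7* had 0, 2 and 483 against 907, 2116 and 1463, and the BMP target *Id3* had 0, 206 and 1 against 2085, 419 and 976. The central mediators were abundant at both stages and overlapped, as *Smad4* with 18562, 12339 and 30997 reads against 18632, 36880 and 15235 and *Bmpr2* with 23650, 5784 and 3070 against 17269, 24871 and 15532. *Acta2*, a smooth muscle actin gene and TGF-β-responsive stromal marker, also lay higher in each primary library, with 1, 8 and 416 against 2596, 2954 and 1504 reads. The summed stroma and theca level overlapped between the stages, and the part of somatic RNA in these values was not tested.

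Of 36 Wnt genes tested, 3 (8.33%) lay higher in all primary libraries, near the background of 9.87%. They were *Dvl1*, the Dishevelled gene (237, 0 and 2 against 623, 4271 and 1856 reads), *Lef1*, a nuclear partner of β-catenin (0, 1 and 0 against 644, 4 and 360), and *Wnt2b* (0 in each primordial library against 1, 15 and 6). β-catenin itself, *Ctnnb1*, had 19138, 443 and 28467 reads against 9008, 2141 and 12205 and overlapped.

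Meiotic genes were divided into those of prophase and those of arrest and maturation. Oocytes of both stages are arrested late in the first meiotic prophase, and none of 24 prophase genes was free of overlap. *Smc3*, a cohesin gene, had 1752, 2624 and 5481 reads against 5803, 7558 and 11510. Genes of early prophase were seen in single libraries, such as *Hfm1*, a crossover helicase gene, with 2822 reads in primordial library 2 and 0 elsewhere. Among 26 genes of meiotic arrest and maturation, 4 (15.4%) lay higher in all primary libraries and 1 (3.85%) in all primordial libraries. The shares of all genes were 9.87% and 1.34%. *Prkar1a*, the regulatory subunit of protein kinase A, which holds the arrest, had 2, 272 and 145 reads against 5240, 571 and 11157 (log2 difference 4.97, SE 2.86). *Cdc25a* (17, 83 and 12 against 751, 2178 and 677) and *Cdc25b* (0, 27 and 11 against 305, 818 and 48) encode phosphatases that activate CDK1, and *Cdc20* (147, 0 and 0 against 587, 471 and 588) an activator of the anaphase-promoting complex. *Pde3a*, the phosphodiesterase that lowers cAMP at resumption, was the downward member, at 80.5, 43.1 and 139 CPM against 42.1, 10.7 and 8.78 CPM, although its stages overlapped with library size alone.

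In the mitotic cell cycle group, 4 of 29 genes (13.8%) lay higher in all primary libraries and 1 in all primordial libraries. *Top2a*, topoisomerase II alpha, was the most abundant of the 4 in reads (ENSMUSG00000020914, chr11:98992943-99024189). It had 2434, 1952 and 1481 reads in the primordial and 9532, 10189 and 10242 in the primary libraries, or 106 ± 59.6 against 356 ± 72.7 CPM (SD, n = 3; log2 difference 1.74, SE 2.31, edgeR adjusted p = 0.928). The primary libraries held more than any primordial library under all 4 scalings. *Ccna2*, cyclin A2, had 140, 188 and 0 reads against 318, 1463 and 1278, but overlapped with DESeq2's size factors and TMMwsp. The CDK inhibitor genes *Cdkn2a* (56, 1 and 136 reads in the primary libraries) and *Cdkn2c* (112, 3 and 6 reads) were at 0 in each primordial library. Their mean levels were at least 12.9-fold and 8.39-fold higher. In primary library 2, however, neither gene exceeded the 3 reads that a count of 0 allows for. *Mcm2*, a replication licensing helicase gene, was at 99.5, 168 and 215 CPM against 48.6, 73.9 and 73.6 CPM, with overlap under library size alone. *Mki67*, the proliferation marker, had 204, 119 and 25 reads against 242, 119 and 237 and overlapped.

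Replication-dependent histone genes were examined as a group assembled after the values were seen. Of 64 genes tested, 14 (21.9%, beside 9.87% of all genes) lay higher in all primary libraries and 0 in all primordial libraries, and all 14 belong to the *Hist1* cluster of chromosome 13. The number of histone genes over 3 reads, of 67, was 27, 37 and 40 in the primordial and 55, 51 and 59 in the primary libraries. The share of all reads that histone genes took was 1.15, 1.21 and 1.22% in the primordial and 1.06, 2.36 and 2.32% in the primary libraries. More histone genes were therefore detected in each primary library, whereas the summed share overlapped through primary library 1. Abundant members occurred on both sides, and one that overlapped was *Hist1h4d* with 2082, 62841 and 10274 reads against 17196, 20592 and 25739.

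The clearest member was *Hist1h2bn*, an H2B gene (ENSMUSG00000095217, chr13:21754123-21754503). It had 0, 155 and 6 reads in the primordial and 12364, 29626 and 24358 in the primary libraries, or 2.01 ± 3.23 against 812 ± 441 CPM (SD, n = 3; log2 difference 8.65, SE 2.60, edgeR adjusted p = 0.384). *Hist1h2bb* had 1, 436 and 3 reads against 7217, 23819 and 18370 (log2 difference 6.81, SE 2.13), and *Hist1h2bg* had 0, 2 and 834 against 19250, 6929 and 10433. Every primary library held at least 6929 reads of each of these 3 H2B genes and no primordial library more than 834. Among H2A genes, *Hist1h2ab* had 2, 3 and 1 reads against 3115, 15407 and 2279 (log2 difference 11.37, SE 3.54), *Hist1h2ak* 28, 5 and 1 against 7577, 1922 and 23520, and *Hist1h2ai* 0, 4 and 0 against 6661, 703 and 17. The H3 gene *Hist1h3d* had 0, 2 and 1 reads against 1813, 2217 and 5188, and the linker histone gene *Hist1h1b* had 3, 0 and 4 against 17, 297 and 361. Histone genes of one type are nearly identical in their coding sequence, how reads that map to several of them were counted is not given in the sources used here, and the split between members is uncertain.

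**Figure D4:**
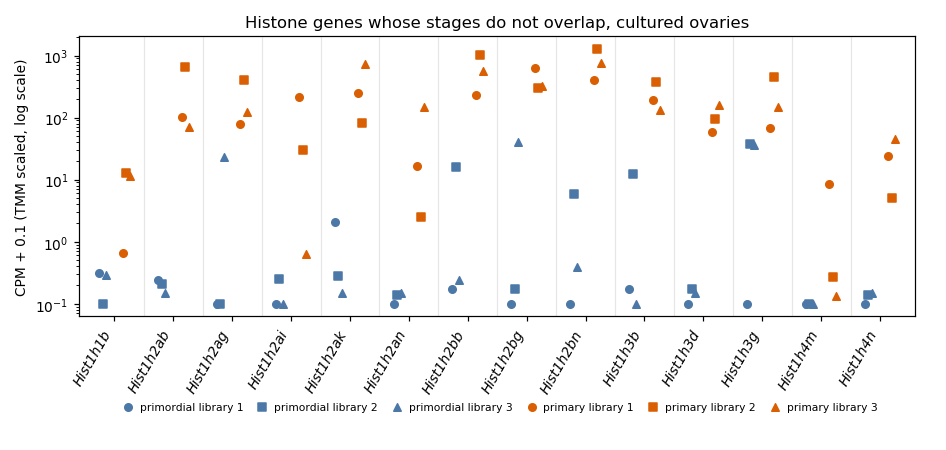
Level of the 14 histone genes without overlap between the stages (horizontal axis) in CPM after TMM scaling plus 0.1 (vertical axis, log scale), one point per library and one marker shape per library number. The genes were chosen by this pattern, most primordial points (blue) lie near the lower limit, and the primary points (orange) lie above them in each gene.

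The 250 bases before the start of the 3 H2B genes named above are shown because these genes had the same order of stages, from RefSeq on GRCm38.p6, 5′ to 3′, with matches on either strand to CCAAT, to the octamer ATTTGCAT and to TATAAA in capitals.
Hist1h2bn promoter, chr13:21753826-21754075, plus strand: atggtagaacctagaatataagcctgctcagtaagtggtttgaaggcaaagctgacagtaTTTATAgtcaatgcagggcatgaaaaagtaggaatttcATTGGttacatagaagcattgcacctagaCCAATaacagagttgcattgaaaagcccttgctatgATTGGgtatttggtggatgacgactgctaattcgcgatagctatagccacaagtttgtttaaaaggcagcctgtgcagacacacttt
Hist1h2bb promoter, chr13:23746484-23746733, plus strand: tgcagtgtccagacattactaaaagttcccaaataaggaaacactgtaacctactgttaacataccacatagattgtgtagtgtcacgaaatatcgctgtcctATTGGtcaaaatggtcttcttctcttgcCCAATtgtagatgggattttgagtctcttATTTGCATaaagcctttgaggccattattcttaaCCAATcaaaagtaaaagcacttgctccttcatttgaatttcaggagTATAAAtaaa
Hist1h2bg promoter, chr13:23571150-23571399, plus strand: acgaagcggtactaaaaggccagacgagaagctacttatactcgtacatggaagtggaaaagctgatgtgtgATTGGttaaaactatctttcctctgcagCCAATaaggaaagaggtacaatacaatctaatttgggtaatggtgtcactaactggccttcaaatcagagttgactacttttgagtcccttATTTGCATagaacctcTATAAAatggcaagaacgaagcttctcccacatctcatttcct
All 14 genes and 44 of the other histone genes had a RefSeq window. A CCAAT match was found in 12 of 14 (85.7%) of the genes higher in primary libraries, in 37 of 44 (84.1%) of the other histone genes and in 33.8% of all 32851 windows. The octamer occurred in 3 of 14 (21.4%), 10 of 44 (22.7%) and 1.60%, and TATAAA in 10 of 14 (71.4%), 19 of 44 (43.2%) and 12.4%. CCAAT and octamer matches were about as frequent in the histone genes that overlapped as in those that did not.

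Of 77 oxidative phosphorylation genes, 10 (13.0%) lay higher in all primary libraries and 0 in all primordial libraries, with a median log2 difference of 0.59 and 50 positive values. With limma-voom the median was 2.05 with 67 positive, beside 1.33 over all genes, and on log2 TPM (pseudocount 0.1) it was 2.25 with 70 positive, beside 0.68. *Uqcrc2*, a complex III core gene, had 182, 292 and 5 reads against 2044, 780 and 938, and *Cox6a1*, a complex IV subunit gene, 18, 6 and 23 against 66, 143 and 105. Complex I gene *Ndufb6* (37, 225 and 60 reads) and ATP synthase gene *Atp5f1* (121, 19 and 193 reads) were at 0 in each primordial library, at least 27.1-fold and 22.8-fold higher. *Atp5b*, the member of highest mean CPM, overlapped, with 2680, 20446 and 14816 against 18594, 15694 and 15498 reads. Among 28 mitochondrial import genes 2 (7.14%) lay higher in all primary libraries. The median of -0.45 turned to 2.66 with limma-voom and 1.22 and 2.47 on log2 TPM (pseudocounts 1 and 0.1). It was 1.21 with the replicate block, beside 1.29 over all genes, and 0.71 without primordial library 3.

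Of 20 genes of glycolysis and pyruvate use, 4 (20%) lay higher in all primary libraries and 1 (5%) in all primordial libraries. The shares of all genes were 9.87% and 1.34%. *Hk2*, a hexokinase gene, had 0, 0 and 1 reads against 210, 5752 and 1843. *Pgk1*, phosphoglycerate kinase, had 216, 2 and 746 against 7501, 1648 and 8852 (log2 difference 3.51, SE 2.34), and *Eno1*, enolase, had 472, 18 and 139 against 1904, 7004 and 3287. *Mpc1*, a subunit of the mitochondrial pyruvate carrier, was at 0 in each primordial library and at 25, 222 and 1 in the primary ones. *Tpi1*, triosephosphate isomerase, lay the other way, with 2907, 2296 and 3215 reads against 490, 5 and 2080, and overlapped with library size alone. *Gapdh* and *Pkm* overlapped.

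Antioxidant genes were mixed as well, with 4 of 34 (11.8%) higher in all primary libraries and 1 (2.94%) in all primordial libraries. The upward share was near the 9.87% of all genes. *Sod1*, cytosolic superoxide dismutase, had 2035, 2959 and 1777 reads in the primordial and 885, 574 and 1005 in the primary libraries (log2 difference -2.01, SE 2.79, edgeR adjusted p = 0.939), without overlap under any of 4 scalings. *Prdx6*, a peroxiredoxin gene, had 0, 266 and 32 against 420, 2364 and 715. *Gpx7*, *Nqo2* and *Hmox1* were at 5 reads or fewer in every primordial library, and 470 of the reads of *Gpx7* and 418 of those of *Hmox1* came from primary library 3. In cholesterol synthesis, 3 of 22 genes (13.6%) lay higher in all primary libraries and 1 (4.55%) in all primordial libraries. *Dhcr7*, the enzyme of the last step, had 0 in each primordial library and 168, 538 and 726 reads in the primary ones, at least 108.5-fold higher, and *Fdps* had 8, 37 and 22 against 181, 597 and 1639. *Insig1*, a brake on the pathway, lay the other way, with 10192, 8273 and 3633 against 2136, 2617 and 1415 (log2 difference -2.42, SE 2.36).

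Of 79 ribosomal protein genes, 5 (6.33%) lay higher in all primary libraries and 1 (1.27%) in all primordial libraries. The shares of all genes were 9.87% and 1.34%. The median log2 difference of the group was 0.12, or -0.20 with DESeq2's size factors and -0.07 without primordial library 2. *Rplp1* had 2949, 7303 and 5609 reads against 9100, 13296 and 22858, and *Rpl36* had 3158, 5207 and 8157 against 2169, 1342 and 4831. Of 27 immediate early and stress genes, 1 (3.70%) did not overlap. *Fos*, a transcription factor gene of the early response, was at 0 reads in all libraries but primordial library 3, where it had 26. In the survival and death group, 4 of 21 (19.0%, beside 9.87% of all genes) lay higher in all primary libraries. *Trp63*, the guardian of the oocyte genome in resting follicles, was one of them, with 181, 3 and 543 reads against 2788, 2191 and 874. In CPM, its primary library 3 exceeded primordial library 3 only barely. *Bak1* and *Bid* were at 26 reads or fewer in all libraries.

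Contact between oocyte and granulosa cells was covered by 12 genes. Of these, 2 (16.7%) lay higher in all primary and 2 (16.7%) higher in all primordial libraries. *Gja1*, connexin 43 of the granulosa cell network, had 2029, 1836 and 3660 reads against 18047, 4509 and 26724 (log2 difference 2.04, SE 2.07), and it overlapped with DESeq2's size factors. *Gja4*, connexin 37 of the oocyte side, overlapped, with 248, 9424 and 5427 against 6821, 3604 and 4126. *Izumo1r*, the sperm receptor JUNO, had 0, 4 and 0 against 95, 17 and 48. *Itpr1*, the calcium channel of egg activation, had 32687, 34459 and 27693 reads in the primordial and 13860, 22848 and 9791 in the primary libraries (log2 difference -1.51, SE 1.33, edgeR adjusted p = 0.750) without overlap under any of 4 scalings. *Cd9*, the tetraspanin of sperm fusion, had 3897, 20220 and 5712 against 4944, 9 and 2576.

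**Figure D5:**
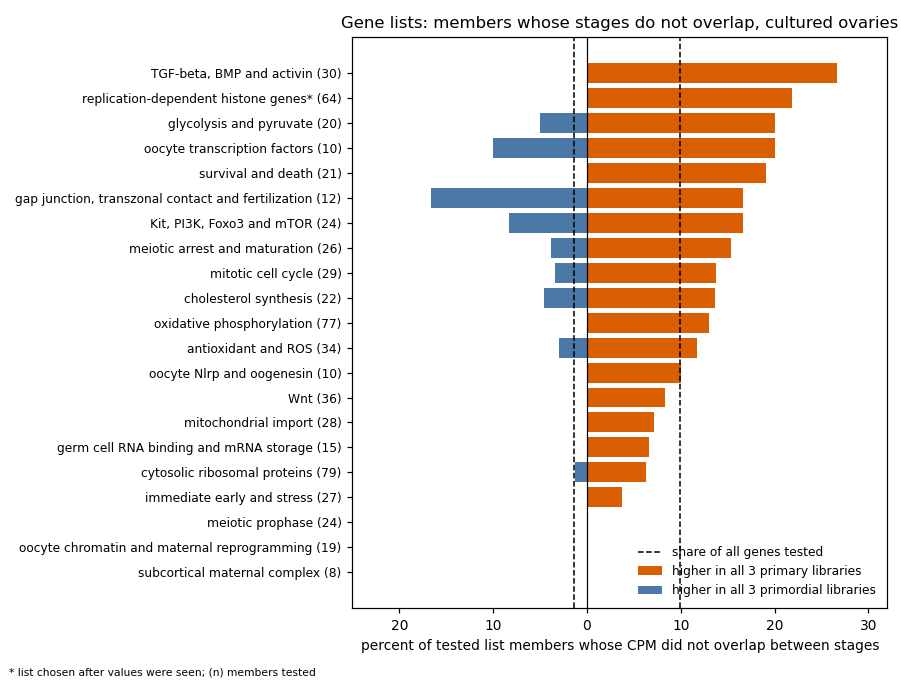
Percent of the tested members of each gene group (number in brackets) whose levels did not overlap between the stages, to the right for higher in all 3 primary libraries and to the left for higher in all 3 primordial libraries, with dashed lines at the share of all genes tested (9.87% and 1.34%). The TGF-β, BMP and activin group reaches 26.7% on the right, and the histone group, assembled after the values were seen, 21.9%. Empty groups number 3, and groups of 12 members or fewer move by over 8 percentage points with 1 gene.

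The genes with the smallest p-values among those without overlap were taken from both directions. Upward, 5 of the 12 were histone genes. *Snrnp27*, a spliceosomal protein gene, had 0 reads in each primordial library and 10301, 5799 and 4050 in the primary libraries, at least 1507-fold higher. *Mrpl43*, a mitochondrial ribosomal protein gene that overlaps *Twnk*, was at 0 against 3130, 4110 and 945, and *Klhl2*, an adaptor gene of ubiquitin ligases, at 0 against 2109, 366 and 2946. The kinase gene *Clk4*, which acts on splicing factors, had 0, 1 and 0 against 2909, 852 and 2587. These 4 were high in all primary libraries. By contrast *Chm* (0 in each against 10, 6351 and 48), *Gsn*, gelsolin (0, 1 and 0 against 159, 4939 and 267), and *Pard3b*, a polarity gene (3, 2 and 1 against 396, 11058 and 42), took most of their reads from primary library 2, the library with the epithelial markers.

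Downward, *Mtpn*, myotrophin, had 41476, 26636 and 8392 reads in the primordial and 3007, 8 and 797 in the primary libraries (log2 difference -5.15, SE 1.92, edgeR adjusted p = 0.384). *Atp6v1g1*, a subunit of the vacuolar proton pump, had 9844, 17098 and 1235 against 236, 267 and 149, and *Wscd2* had 3297, 3843 and 345 against 6, 50 and 70. These genes were present in all 3 primordial libraries and lower in each primary library. *Fam8a1* (5206, 31306 and 3324 against 776, 0 and 1812), the transcription factor gene *Klf12* (9531, 1981 and 2286 against 728, 4 and 2), the tetraspanin gene *Tspan5* (638, 12872 and 2974 against 552, 117 and 34) and the atlastin gene *Atl1* (1461, 9544 and 11213 against 1032, 2 and 166) had the same order. *Ankra2*, *Snx22* and *Sh3gl3* were also among the 12.

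The same stages from non-cultured ovaries gave 8 called genes of 15317 (0.0522%), 5 higher and 3 lower in primary follicles, with the same test. Of the 1411 genes with an unadjusted p under 0.05 upward in culture, 547 (38.8%) had a positive log2 difference *in vivo*, where 44.3% of all genes tested were positive. Of the 262 downward genes, 111 (42.4%) were negative *in vivo*, beside 49.1% of all genes. Genes that leaned one way in culture therefore did not lean that way *in vivo* more often than other genes. The zona genes had a median log2 difference of -0.41 in culture and 3.36 *in vivo*, and the secreted factors 0.93 and 5.11. These culture values rest on primordial library 2, without which they were 0.73 for the zona genes and 4.77 for the secreted factors, and limma-voom with all libraries gave 0.17 and 5.52. Over all genes tested limma-voom gave a median of 1.33. For *Gdf9* the *in vivo* value was 4.24, for *Top2a* 6.98 and for *Foxo3* 0.09. The difference of the stage effect between culture and *in vivo* was called for 16 genes of 15317 (0.104%), 11 higher and 5 lower in culture. No gene of the zona, secreted factor, maternal complex or Foxo3 pathway groups was among the 16, whereas *Hist1h2ag* and *Hist1h2ai* of the histone group were.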

How the data were processed

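RNA from laser-captured mouse oocytes was amplified (Ovation PICO SL WTA V2), enriched for exons (TruSeq RNA Access) and sequenced by the authors. Per the submitters' processing notes the tools were Trim Galore 0.4.1, TopHat2 and featureCounts with build mm10. The authors deposited raw read counts per gene and, in another table, TPM values of fewer genes. Strandedness and the handling of multi-mapping reads are not given in the sources used here.

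The deposited counts of the 12 oocyte libraries (4 groups of 3, by sample label) entered one edgeR 4.0.16 quasi-likelihood model with TMM scaling and robust estimation in R 4.3.3, over genes with a total of at least 10 counts, and p-values were adjusted over all genes by the Benjamini-Hochberg method. A call needed an adjusted p under 0.05 and a fold of at least 2. Levels are CPM after TMM scaling. A stage without overlap has every library above all of the other stage. For a gene at 0 in a whole stage, the fold is a lower bound on the ratio of mean levels, from 3 reads per library. Of 53715 genes, 53620 matched GENCODE annotation on GRCm38, which gave the coordinates.

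Alternatives were DESeq2 1.42.0, limma 3.58.1 (voom with quality weights, and log2 of the deposited TPM plus 1 or 0.1), other scalings and filters, the 6 culture libraries alone, no robust estimation, a replicate block, and each library left out. Thinning to equal depth and list medians without single libraries were chosen after seeing the data. Scripts were tested on simulated data. Recovery of changed genes was required only at a spread between libraries well below that of these data. The simulation therefore does not show how many changed genes the test would find here. Members and gene lists were chosen with earlier results of these data known. Named were all zona, secreted factor, transcription factor and maternal complex genes, in other lists the members without overlap and a few of high CPM or known for activation, the 12 smallest p-values per direction among genes without overlap, and the 5 genes of highest mean CPM per stage. Genes named beside these, such as single-library examples and most histone genes, were picked after their values were seen. A few genes that this rule names are not reported here.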

Additional observations from a re-analysis of the deposited data

Results flagged for a closer look

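For 16 genes the difference of the stage effect between culture and *in vivo* (primary minus primordial in culture, less the same *in vivo*, log2) passed edgeR's interaction test at adjusted p-values of 0.0201 to 0.0489. Reads are given for libraries 1, 2 and 3 of a group. The fitted values of genes with libraries at 0 depend on the prior count and are no bounds.

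The value was positive for 11 genes. *Homer1*, a synaptic scaffold gene (25.89), had 0 reads in each primordial and 2258, 1455 and 440 in the primary libraries of culture, and *in vivo* 9476, 2007 and 7 against 1, 0 and 0. *Mrpl43* (24.32) had the same order, with 3418, 1 and 8996 *in vivo* reads in primordial and 1, 0 and 9 in primary follicles. *Max*, the partner of MYC (12.67), had 0, 14 and 20660 against 5471, 28504 and 12121 in culture and 13113, 8823 and 18579 against 1, 8 and 2 *in vivo*. *Slc33a1*, the acetyl-CoA transporter gene (18.45), and the histone variant gene *H2afj* (13.75) were also low in every *in vivo* primary library, at 8 reads or fewer. In *Pcdha6* (25.64), *Crem* (20.63), *Gm21811* (26.01), *Hist1h2ag* (15.71), *Hist1h2ai* (14.90) and *Gm4204* (27.30), most *in vivo* reads of primordial follicles came from 1 library.

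The value was negative for 5 genes. *Tubb6*, a β-tubulin gene (-12.03), had 1, 22015 and 22575 reads in primordial and 27490, 3736 and 17429 in primary follicles of culture, and *in vivo* 2, 5 and 2 against 5584, 17684 and 6222. *D6Ertd527e* (-13.29) had 2, 52622 and 12878 against 22102, 6972 and 12983 in culture and 1, 1 and 4 against 14340, 1594 and 13986 *in vivo*. *Ptp4a1*, a phosphatase gene (-12.64), *Tubb3*, another β-tubulin gene (-13.42), and *Lgalsl* (-15.28) likewise had 15 reads or fewer in every *in vivo* primordial library. None of the 16 was called with a replicate block.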

How the results depend on the processing

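The 0 calls in culture held under every edgeR setting tried, with smallest adjusted p-values of 0.0860 (without primordial library 2) to 0.897. Other tools made calls: DESeq2 423 higher and 31 lower in primary follicles, 1085 and 193 without its own filters, limma-voom 261 and 1, and limma on log2 TPM 18 (pseudocount 1) and 22 (0.1) higher. *In vivo* (5 higher, 3 lower) DESeq2 gave 312 and 249, and leaving out a library 0 to 6 and 0 to 5, with 0 higher without any one primordial library. For the difference of stage effects (11 and 5) DESeq2 gave 397 and 161, and leaving out a library 0 to 11 and 0 to 9. The cause was not tested. For pairing, the mean of its stage was subtracted from each gene's log2 CPM. The remainders of same-numbered culture libraries correlated at -0.0190, -0.0267 and 0.0117, so the numbers gave no sign of pairing. With a replicate block 0 genes were called in any of the 3 comparisons in either direction, and in culture 757 higher and 60 lower had an unadjusted p under 0.05.

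Genes higher in all primordial libraries numbered 126 with library size alone, and genes at one stage only 107 and 0 at over 10 reads against 0. The distance ratio ran from 0.984 to 1.17 with a library left out.

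The log2 differences of *Zp2*, *Zp3*, *Gdf9*, *Nlrp5*, *Kit* and *Tsc2* changed sign. With voom, *Zp2* was 0.17, *Zp3* 0.95, *Gdf9* 4.06, *Nlrp5* 0.48, *Kit* 0.44 and *Tsc2* 1.31, beside a median of 1.33 over all genes. On log2 TPM (pseudocounts 1 and 0.1) they were 0.28 and 0.32, 1.02 and 1.08, 3.06 and 3.67, 0.63 and 0.77, 0.36 and 0.30, and 1.22 and 1.55. With library size alone *Zp2* was 0.0293, *Kit* 0.35 and *Tsc2* 0.25. With the block *Zp3* was 0.12, *Gdf9* 0.95, *Kit* 1.25 and *Tsc2* 0.42. Leaving out a library gave *Zp2* -0.77 to 0.73, *Zp3* -0.93 to 1.93, *Gdf9* -1.11 to 5.57, *Nlrp5* -0.89 to 1.33, *Kit* -2.22 to 3.0 and *Tsc2* -0.69 to 3.15. Of all gene values under alternatives, 1381 kept direction and side of the threshold, 55 passed it and 34 changed sign.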

Other observations

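Both DESeq2 and limma-voom called 187 genes, all higher in primary follicles, and 169 of them did not overlap between the stages. In 148 of the 187 every primordial library had at most 3 reads. Over all genes tested, 9.87% lay higher in all primary libraries. The calls were made on the same libraries and pick large differences, so these counts describe the calls and add no separate support. Examples were chosen after their values were seen. *Taf8*, a TFIID subunit gene, had 0 reads in each primordial library and 2345, 3552 and 1492 in the primary libraries. *Arl5a*, a small GTPase gene, had 0 in each against 133, 1503 and 793, and *Bcl10*, a signalling adaptor gene, had 0, 0 and 1 against 2713, 4699 and 2542. *Rad21*, a cohesin subunit gene, had 5, 2 and 4 against 5034, 6082 and 939. *Lin28a*, an RNA-binding protein gene of germ and stem cells, had 5, 48 and 0 against 1551, 1814 and 707. The 5 genes were below 50 reads in every primordial library and above 130 in every primary library.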
